A study of Mus musculus with 8 samples.

Results

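The genes described here were selected as lying under the longest runs of closely spaced H3.3 peaks in wild-type (WT) mouse cells. The values below do not bear this out for every gene. Of the 55 peaks of the day 15 run credited to Mapt, 4 lay on Mapt, and the day 15 run at Nufip2 ranked 104 by number of peaks. The 10 members, Usp34, Xpo1, Cltc, Vmp1, Mapt, Taok1, Tnks, Med13, Nufip2 and Cobl, were selected on their peaks in the WT lists, and they are 10 of 22367 protein-coding genes. Tnks lies on chromosome 8 and the other 9 on chromosome 11. Their WT peak counts, densities and changes between days are therefore given as a description, with no test. The study profiled H3.3 carrying an HA tag by native ChIP-seq, on chromatin cut with micrococcal nuclease and precipitated with an anti-HA antibody. Undifferentiated cells (day 0) and cells differentiated towards cardiomyocytes by hanging drop culture (day 15) were compared in a WT mESC line (W9.5) and in a Hira-null mESC line (Clone104), which is 1 clone. All 4 conditions carry the tagged H3.3, and each gave 1 ChIP library and 1 input DNA library, so no difference below has a replicate check. The lists hold no expression values, so the identity of the day 15 cells was not checked.

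Chromatin is built on nucleosomes, and H3.3 is the histone H3 variant that is placed into it outside DNA replication. HIRA is the chaperone known for placing H3.3 over the bodies and promoters of active genes, while ATRX and DAXX are known for placing it at repeats. A peak is a stretch where the ChIP reads pile up above the level that the authors' peak caller MACS took as background. Its score is 10 times the negative log10 of the p-value of MACS, and it grows with sequencing depth. Scores of different lists are therefore given as values and not compared, other than in 1 alternative that sets the same minimum for every list.

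The WT lists held 22730 peaks at day 0 and 27272 at day 15, and the Hira-null lists held 17706 and 7332. Peaks were unevenly spread over chromosomes in WT cells. Peak density on chromosome 11 was 2.91 times that of the other autosomes in WT at day 0 and 5.72 times at day 15, against 1.01 and 1.16 times in the Hira-null lists. On chromosome 8 the ratios were 1.55 and 3.19 in WT and 0.854 and 0.736 in Hira-null. For this reason the members were set against the 2725 other genes of chromosomes 8 and 11. A difference between genotypes at the members and one along their whole chromosomes cannot be told apart in these lists.

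Peaks were counted in a window from 10 kb before the transcription start site (TSS) to 200 bp past the end of the gene. The member windows ran from 52.4 kb (Xpo1) to 239 kb (Cobl), so 598 other genes of the same chromosomes with a window of at least 50 kb served as a second background. The joined windows of the 10 members span 1179 kb. They held 177 WT peaks at day 0, 268 WT peaks at day 15, 10 Hira-null peaks at day 0 and 16 at day 15. Members also share neighbourhoods. Xpo1 and Usp34 are adjacent, Taok1 and Nufip2 lie within chr11:77342464-77555494, and Med13, Vmp1 and Cltc lie within chr11:86080335-86581067, so the 10 genes are not independent samples of the genome. Windows of neighbours overlap, so a few peaks count for a pair of genes, and the counts of single genes sum to more than the joined ones.

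**Figure D1:**
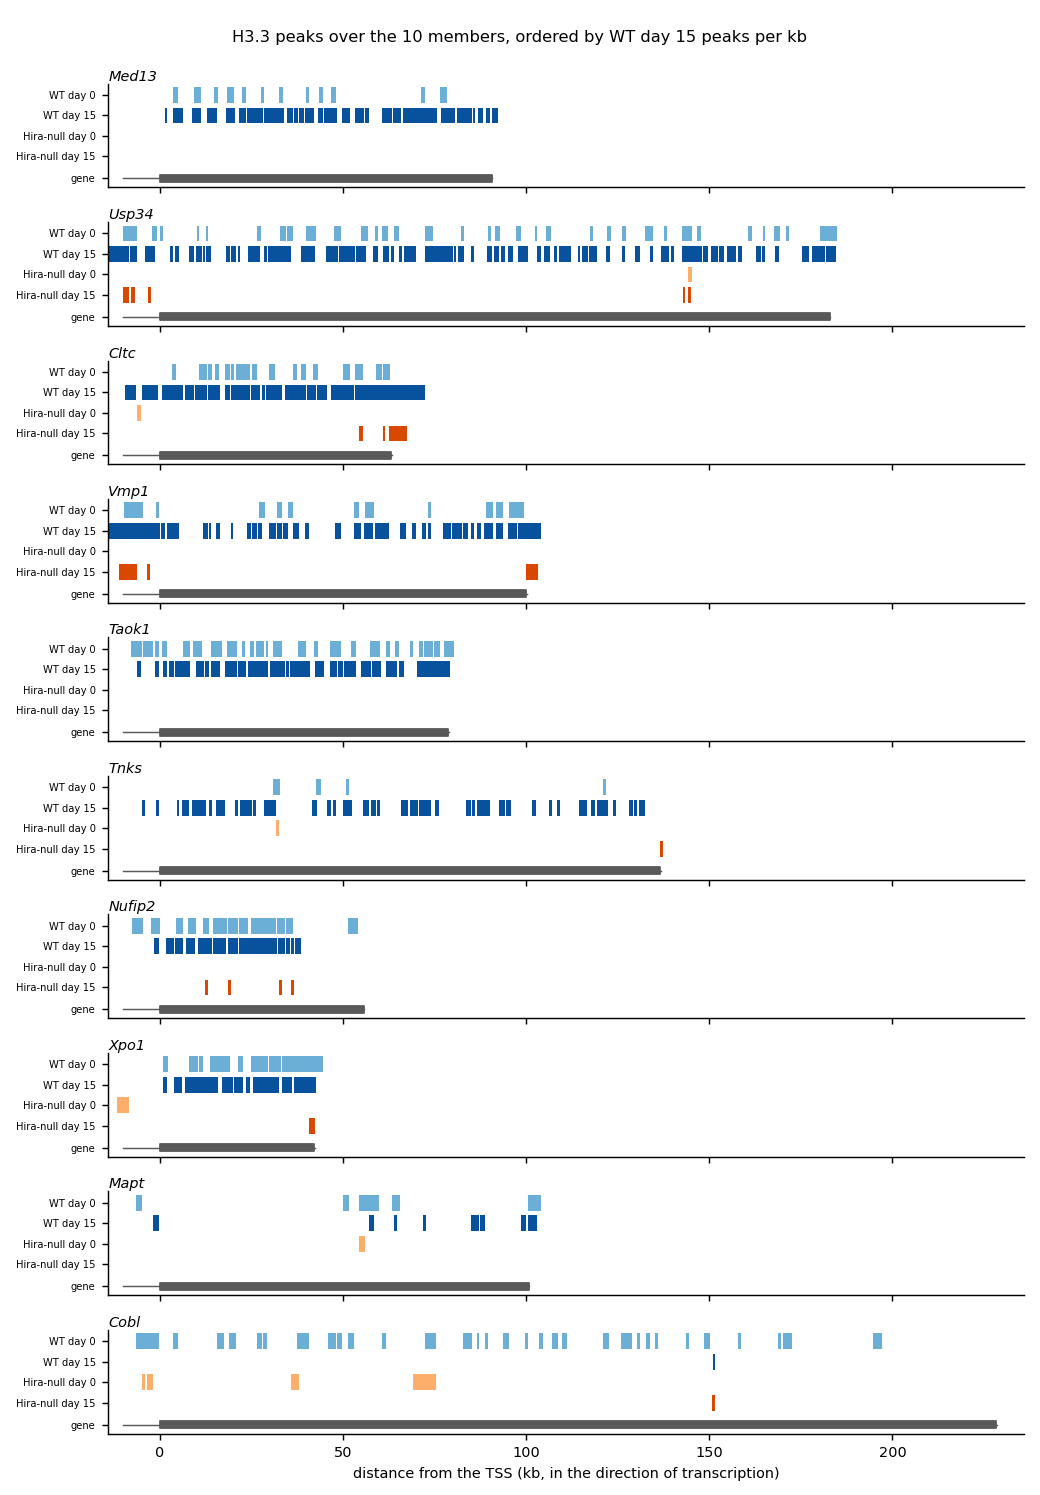
Peaks of the 4 lists over each member, drawn to scale along the distance from the TSS in kb, in the direction of transcription. The thick grey bar is the gene body and the thin line the window; in Med13 and Taok1 the lanes of both Hira-null lists are empty, and in Cobl the WT day 0 lane holds 33 peaks and the day 15 lane 1.

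Peaks no more than 12 kb apart were joined into domains. The longest domain at WT day 15 by number of peaks ran across Xpo1 and Usp34 and on into Ahsa2, chr11:23156883-23394728, with 79 peaks in 238 kb. The next, chr11:86383299-86631822, held 73 peaks in 249 kb over Vmp1, Ptrh2, Cltc and Dhx40. A domain of 51 peaks in 207 kb ranked 5 and ran over Tnks and Dusp4. Med13 lay in a domain of 40 peaks (rank 11) and Taok1 in one of 35 (rank 18). The Nufip2 domain held 17 peaks and ranked 104 of 12711. A domain of 58 peaks over Ankrd11, a chromatin regulator on chromosome 8, ranked 3 and one of 51 over Palld ranked 6, and neither gene is a member. At day 0, Cobl lay in a domain of 32 peaks (rank 3), Taok1 in one of 29 (rank 6) and Usp34 in one of 25 (rank 12). All these ranks are over the whole genome. Of the 78 WT day 15 domains with at least 20 peaks, 67 lay on chromosomes 8 and 11, as did 19 of the 25 at day 0. Long domains were thus a trait of many loci on these chromosomes and not of the members alone. The ranks also depend on the joining distance. At 5 kb the Tnks domain broke up, and the 6 pieces that touched Tnks held at most 11 peaks (best rank 89). At 25 kb the domain over Vmp1 and Cltc grew to 115 peaks and ranked 1, with that over Xpo1 and Usp34 at rank 4.

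Med13 encodes a large subunit of the Mediator kinase module, through which signals reach RNA polymerase II. It held 12 WT peaks at day 0 and 37 at day 15, and no peak in either Hira-null list. Its density of 0.367 peaks per kb at day 15 was the highest of the members. Peaks covered 15.1% of its window at day 0 and 63.3% at day 15, and all 12 day 0 peaks overlapped a day 15 peak. The longest stretch of its gene body without a peak shrank from 23.2 kb to 3.64 kb. Its strongest day 15 peak, of score 574, lay in an intron 7.41 kb before the gene end.

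Xpo1 encodes exportin 1, the receptor that carries proteins with leucine-rich signals out of the nucleus. It held 14 WT peaks at day 0 and 11 at day 15, while the share of its window under peaks went from 53.9% to 64.8%. The count and the covered length thus moved in opposite directions. The widest peak on its body measured 3.83 kb at day 0 and 8.85 kb at day 15. All 14 day 0 peaks overlapped a day 15 peak. The strongest day 15 peak (score 622) was centred 2.59 kb before the gene end. Its only Hira-null day 15 peak (score 128) was centred 0.609 kb before the gene end, and its only Hira-null day 0 peak was centred 10.03 kb upstream of the TSS and overlapped no WT peak.

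Usp34 encodes a large ubiquitin-specific protease that acts on axin in Wnt signalling. It held 35 WT peaks at day 0 and 67 at day 15, the most of any member on that day, and coverage of its window went from 24.4% to 56.5%. Of the 35 day 0 peaks, 29 overlapped a day 15 peak, and 37 of the 67 day 15 peaks lay where no day 0 peak was called. The strongest day 15 peak, of score 767 and 6.11 kb wide, lay in an intron 32.7 kb from the TSS. Hira-null cells had 1 peak at day 0 and 5 at day 15 in this window, 3 of the 5 upstream of the TSS. A Hira-null peak at 144.6 kb from the TSS was present on both days, with a score of 83.4 at day 0 and 209 at day 15. It was the only Hira-null peak in any member window that overlapped a Hira-null peak of the other day.

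Tnks encodes tankyrase 1, a poly-ADP-ribosyltransferase that marks axin and the telomere protein TRF1. Its 146.7 kb window held 5 WT peaks at day 0 and 40 at day 15, the largest ratio of the members at 8 (95% interval 3.16 to 26.0, counting error only). Coverage went from 3.55% to 40.4%. The day 0 density of 0.0341 peaks per kb was at percentile 70.4 of the other genes with long windows, and the day 15 density of 0.273 at percentile 97.2. Over the whole of chromosome 8, WT peaks went from 12.6 to 26.0 per Mb between the days. The part of this in the change at Tnks was not tested. Only 4 of the 40 day 15 peaks overlapped a day 0 peak. The strongest lay 10.8 kb into the gene with a score of 713. Hira-null cells had 1 peak on each day, with scores of 50 and 50.06, close to the lowest score of the lists.

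Taok1 encodes a STE20-type kinase that acts upstream of p38 MAP kinase. It held 28 WT peaks at day 0 and 27 at day 15 and no Hira-null peak on either day. Its day 0 density of 0.315 peaks per kb was higher than that of each of the 598 other genes with a long window. Coverage went from 50.3% to 71.4% at nearly the same number of peaks, and the median peak width from 1353 bp to 2140 bp. Of the day 0 peaks, 26 of 28 overlapped a day 15 peak. The strongest day 15 peak (score 878) was 6.41 kb wide and lay over an exon near the gene end.

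Cltc encodes the clathrin heavy chain, which coats endocytic vesicles, and Vmp1, which follows it head to tail on the same strand, encodes an endoplasmic reticulum membrane protein needed for autophagosome formation. Cltc held 17 WT peaks at day 0 and 25 at day 15. Peaks covered 35.3% of its window at day 0 and 85.8% at day 15, more than in any of the 2725 other genes of the same chromosomes. This included a peak 19.0 kb wide (score 914, chr11:86498709-86517745) that ran from within Cltc over its end and across Ptrh2. Vmp1 went from 14 to 37 WT peaks and from 20.3% to 54.7% of its window. Its strongest day 15 peak, of score 1053 and rank 42 of 27272, lay over the gene end. Each gene had 3 Hira-null peaks at day 15, of which 1, centred between the genes, counts for both, and at day 0 Cltc had 1 (score 72.05) and Vmp1 none.

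The peak over the Vmp1 end also covered Mir21, the hairpin of the microRNA miR-21, which sits on the Vmp1 strand at chr11:86397569-86397660. Neither the WT day 0 list nor a Hira-null list had a peak over the hairpin. The nearest WT day 0 peak began 196 bp away with a score of 98.1, and the nearest Hira-null day 15 peak ended 337 bp away with a score of 608. The hairpin is shown because it lies under a peak in 1 of the 4 lists, between the edges of the nearest WT day 0 and Hira-null day 15 peaks, with the mature 5p arm in capitals (mm9, minus strand).
Mir21: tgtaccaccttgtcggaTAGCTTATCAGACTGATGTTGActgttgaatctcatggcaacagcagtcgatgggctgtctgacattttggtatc

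Nufip2 encodes an RNA-binding protein that interacts with FMRP. It held 14 WT peaks at day 0 and 17 at day 15, and coverage was nearly equal at 51.7% and 51.5%. It carried the strongest member peak on both days, an intron peak of score 696 (rank 51) at day 0 and of score 1174 (rank 33) at day 15 over largely the same stretch. WT day 15 peaks stopped 17.2 kb before the gene end, and no peak midpoint lay in the last 20% of the body. Hira-null cells had no peak here at day 0 and 4 at day 15, all in introns, with scores from 55.6 to 102. Each of the 4 overlapped a WT day 15 peak, so that 76.5% of the WT day 15 peaks of Nufip2 had no Hira-null partner, the lowest share of the members with more than 1 WT day 15 peak.

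**Figure D2:**
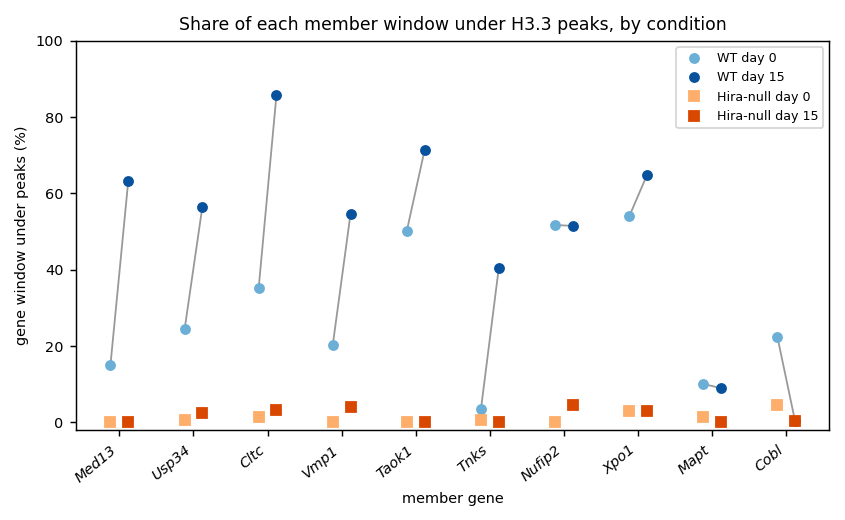
Share of each member window (y axis, percent) that lies under peaks, for WT (circles, day 0 and day 15 joined by a line) and Hira-null (squares) lists, 1 library each. Med13, Cltc and Tnks moved far between days while Nufip2 stayed near 51.5%, and no Hira-null value passed 4.65%.

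Mapt, the gene of the microtubule protein tau, and Cobl, which encodes the actin nucleator Cordon-bleu, did not follow the other 8. Mapt held 6 WT peaks at day 0 and 8 at day 15, or 0.0541 and 0.0721 peaks per kb, at percentiles 81.9 and 61.2 of the other genes with long windows. Coverage of its window was 10.1% and 8.96%, and its strongest day 15 peak had a score of 203. Hira-null cells had 1 intron peak at day 0, with a score of 202, and 0 at day 15. The domain that gave Mapt its place, chr11:104177719-104331500, ranked 4 at day 15 with 55 peaks. Of these, 51 lay on 1700081L11Rik, the gene that faces Mapt tail to tail, and 4 on Mapt. At day 0 all 43 peaks of the corresponding domain touched 1700081L11Rik and 1 touched Mapt. RefSeq lists 1700081L11Rik as a synonym of Kansl1, a subunit of the NSL histone acetyltransferase complex. Its own window held 43, 52, 0 and 1 peaks in the WT day 0, WT day 15, Hira-null day 0 and Hira-null day 15 lists. By its values Mapt is thus the neighbour of a domain rather than a gene under one.

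**Figure D3:**
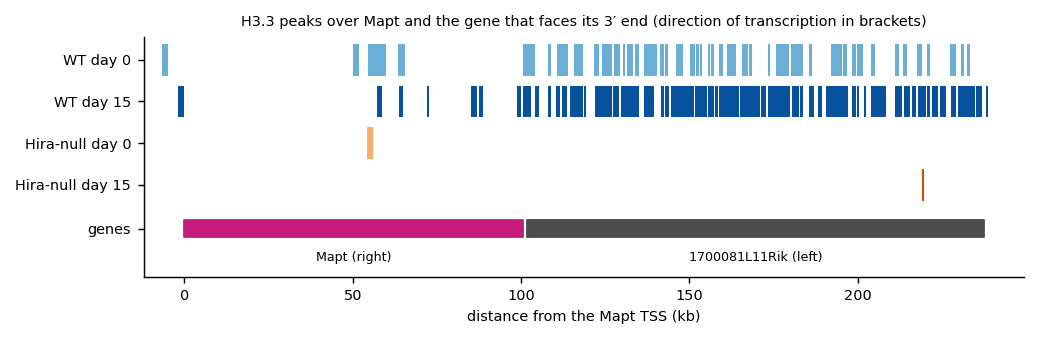
Peaks of the 4 lists along the distance from the Mapt TSS (kb) over Mapt and 1700081L11Rik, with gene bodies as bars. The dense WT lanes start at the end of Mapt, where 51 of the 55 peaks of the day 15 domain lie on 1700081L11Rik.

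Cobl was a day 0 domain that was nearly gone at day 15. Its window held 33 WT peaks at day 0 and 1 at day 15, a ratio of 0.0303 (95% interval 0.000745 to 0.181), and coverage went from 22.4% to 0.245%. None of the 33 day 0 peaks overlapped a day 15 peak. The single day 15 peak had a score of 53.0, ranked 25590 of 27272 and coincided with the only Hira-null day 15 peak of the gene. In the Hira-null day 0 list the strongest peak of any member was an intron peak of Cobl, with a score of 775 and rank 134 of 17706. It overlapped a WT day 0 peak of score 168. The other 4 Hira-null day 0 peaks of Cobl had scores from 60.97 to 130.4. Of 15 genes of the 2 chromosomes with at least 20 WT day 0 peaks, Cobl had the lowest ratio of day 15 to day 0 peaks, and Ranbp17, with 41 and 3 peaks, the next. Ranbp17 was named after its values were seen.

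In the WT lists, 7 of the 10 members had more peaks at day 15 than at day 0 and 3 had fewer (Xpo1, Taok1 and Cobl). Among the other genes of the 2 chromosomes, 56% had more and 9.98% fewer, and among those with long windows 69.2% had more and 13.9% fewer. Over the joined windows the ratio of day 15 to day 0 peaks was 1.51 (95% interval 1.25 to 1.84, counting error over peaks only), below the 2.32 (2.22 to 2.42) of the other genes. With Cobl and Mapt left out after their values were seen, it was 1.88 (1.52 to 2.32). The ratio depends on how peaks are counted. Where peaks less than 1 kb apart were merged it fell to 0.789, since the dense day 15 peaks fused more often, whereas the covered length went from 286 kb to 496 kb, a ratio of 1.73, against 1.91 for the other genes.

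**Figure D4:**
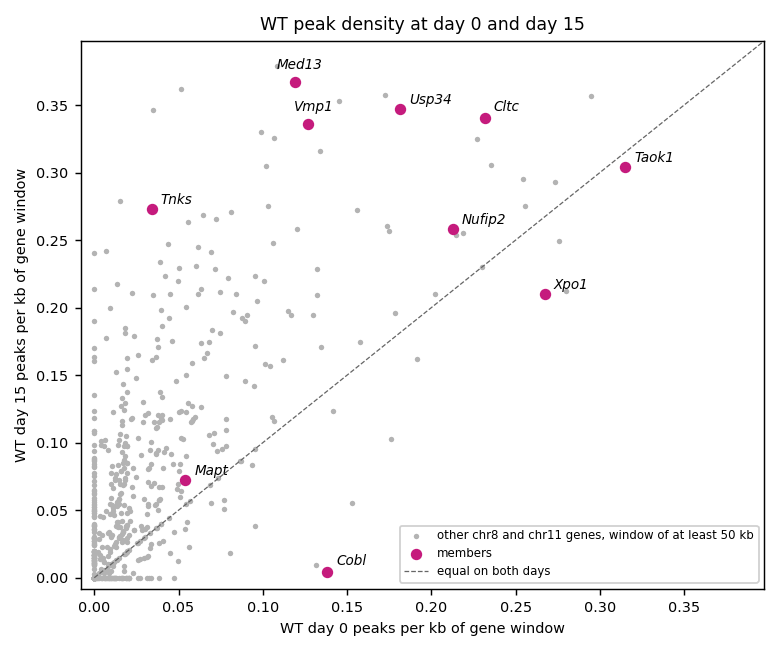
WT peaks per kb of gene window at day 0 (x axis) and day 15 (y axis) for the members and the 598 other chromosome 8 and 11 genes with a window of at least 50 kb; the dashed line marks equal values. Tnks lies far above the line, Taok1 and Xpo1 just below it and Cobl, at 0.138 and 0.00419, near the x axis.

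At day 15 the members held 0.227 WT peaks per kb (95% interval 0.201 to 0.256) and the other genes 0.0599. Of the 10, 7 lay above the 90th percentile of the other genes (0.217 peaks per kb), which 10% of those genes exceed by definition. Xpo1 (0.210) lay just below it, and Mapt and Cobl far below. With peaks less than 1 kb apart merged, the density over the members was 0.0857 and 0 of the 10 lay above the percentile. By covered length, 8 of the 10 lay above the 90th percentile of the other genes (30.2% of the window, again passed by 10% of them). Member peaks were also stronger, with a median day 15 score of 140 against 96.3. All 10 members had a WT peak on both days, against 48% of the other genes at day 0 and 67.8% at day 15, or 71.4% and 81.8% of those with long windows. These values describe how the members were selected.

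WT peaks of day 0 were more often met by a day 15 peak at the members than elsewhere, a comparison in which both lists had served to select them. Of the 177 WT day 0 peaks, 71.8% (95% interval 64.5 to 78.3) overlapped a day 15 peak, against 58.6% at the other genes. With Cobl and Mapt left out after their values were seen, the share was 89.9% (83.6 to 94.3). Of their day 0 peaks, 0 of 33 and 3 of 6 overlapped, so the share had to rise. Peaks covered 42.04% of the member windows at day 15 and 8.39% of the others, so overlap comes more easily at the members and its part in this difference was not tested. In the reverse direction 45.1% of the member day 15 peaks overlapped a day 0 peak, against 26.4% at the other genes.

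The Hira-null lists were not used to select the members. The term HIRA-dependent is used for a WT peak that shares not even 1 bp with any peak in the Hira-null list for that day, and it stands for this comparison of lists, not for a cause. At day 15, 95.5% of the 268 WT peaks over the members were HIRA-dependent (95% interval 92.3 to 97.7) and 96.8% of those over the other genes. At day 0 the shares were 95.5% (91.3 to 98.0) and 90.2%. The day 15 share of the other genes lay within the members' interval, and their day 0 share lay just under it. With Cobl and Mapt left out after their values were seen, the day 0 share was 97.8%. Cobl held 4 of the 8 day 0 WT peaks with a Hira-null partner.

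Hira-null peaks were nevertheless found at most members. At day 15, 7 of the 10 had at least 1 Hira-null peak, against 12% of the other genes and 18.4% of those with long windows. The count was 5 for gene bodies without flanks and 5 at a score of at least 100. The only such peak of Xpo1 also counts for Usp34, and that of Tnks covers 0.039 kb of its window. Dense genes outside the set shared this trait: Appbp2, Aff4, 1700081L11Rik and Nfat5 each had 1 Hira-null day 15 peak, and Gtf2e2 had 0. At day 0, 6 of 10 members had a Hira-null peak, against 16.8% and 34.6%. The density of Hira-null day 15 peaks over the members was 0.0136 per kb (95% interval 0.00776 to 0.0220) and over the other genes 0.00352 (0.00319 to 0.00387). At day 0 the densities were 0.00848 (0.00407 to 0.0156) and 0.00550. The day 15 intervals do not overlap, but they cover counting error only and take the peaks as independent. The peaks were clustered, with 4 in 24.3 kb at Nufip2 and 4 in 16.4 kb over Ptrh2 and Cltc. The dense genes outside the set had 0.0172 (Appbp2), 0.0123 (Aff4), 0.0104 (Nfat5), 0.00686 (1700081L11Rik) and 0 (Gtf2e2) Hira-null day 15 peaks per kb. All 16 Hira-null day 15 peaks over the members overlapped a WT peak, while 37.1% of those at the other genes overlapped none. The WT list of that day selected the members and its peaks cover more of their windows, so this contrast follows in part from the selection. The strongest of them lay at gene ends, of score 627 between Cltc and Vmp1 and of score 608 just past Vmp1, ranked 293 and 312 of 7332. Those of Xpo1 and Tnks were also centred near the gene end, within 0.609 kb of it. Of the 10 Hira-null day 15 midpoints counted in member bodies, 3 fell in the last 20% of the body (30%, 95% interval 6.67 to 65.2). In the other genes with a body of at least 20 kb 37.5% did so, or 42.6% without the annotated model Gm20388. In those with at least 10 WT day 15 peaks, also without Gm20388, it was 47.3%. The peaks of score 627 and 608 and that of Tnks are centred outside the bodies and are not among the 10.

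At WT day 15 the peaks of the members were spread evenly along the gene body, and at day 0 less so. At day 15 the share of midpoints in each successive 20% of the body was 19.5%, 18.7%, 21.9%, 20.7% and 19.1%. The other genes with a body of at least 20 kb had 24.4% in the first 20% and 17.7% in the last. The interval of the members for the first 20% (14.81 to 24.97) includes the value of the other genes, so the difference was not detectable with this number of peaks. In 202 other genes with at least 10 WT day 15 peaks the first 20% held 22.6%. At day 0 the members had 14.8% in the first 20% (95% interval 9.73 to 21.2). The second 20% held the largest share, 28.4% (21.6 to 36.0). It was picked as the largest after the values were seen, so its interval is no test against an even share. In the other genes the second 20% held 22.7% at day 0, and in the 202 dense ones 24.1%, both within the members' interval. The first 20% held 22.2% in the other genes, above the members' interval, and 20.5% in the dense ones, within it. The upstream 10 kb held 5.56% of the member peaks at day 15, or 0.656 times its share of the sequence, and 16.0% of those of the other genes, or 1.58 times. In the dense other genes it was 9.62%, or 1.19 times. Most member peaks were intronic (82.6%), close to the intronic share of the windows (83.9%).

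**Figure D5:**
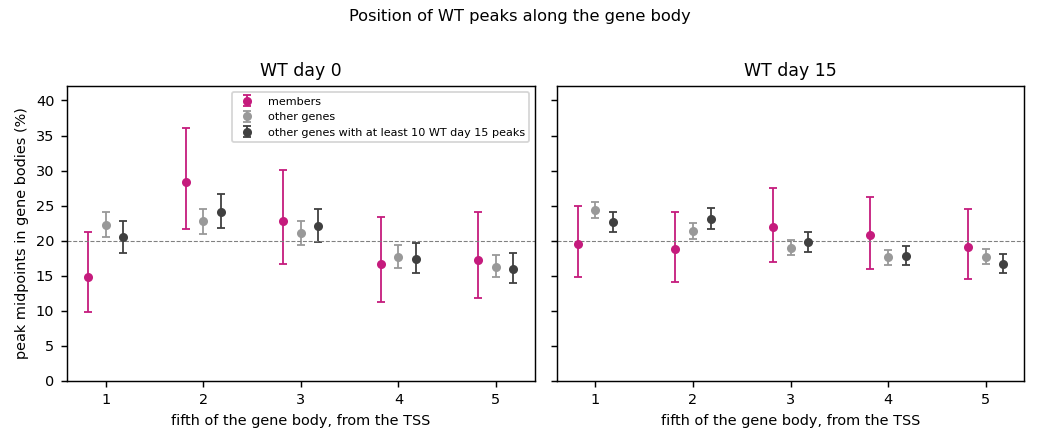
Share of WT peak midpoints (y axis, percent of those in gene bodies) by successive parts of the body, each 20% of its length, from the TSS, for the members, other chromosome 8 and 11 genes with a body of at least 20 kb, and those of them with at least 10 WT day 15 peaks; bars are exact 95% intervals over peaks and the dashed line an even spread. At day 15 the members lie between 18.7% and 21.9% in every part.

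WT peaks, which had served to select the members, came close to the TSS at most of them. In each of the 4 lists, 0 of 10 members had a peak over the TSS itself, against 4.44% of the other genes in the WT day 0 list and 8.84% in the WT day 15 list. With shares this low, 0 of 10 does not set the members apart. A WT day 15 peak lay within 1 kb of the TSS at 7 of 10 members (36.1% of the other genes), and at 6 of 10 at day 0 (15.2%). No member had a Hira-null peak there on either day, against 1.47% of the other genes at day 0 and 1.06% at day 15. These shares are too low for 10 genes to show a difference. At Usp34, the member with the most peaks, the nearest day 15 peak edge was 1.24 kb away, and at Med13, the densest, 1.52 kb. The 300 bases from 250 before to 50 after the TSS were touched by a day 15 peak at 4 of the 10, Vmp1, Mapt, Taok1 and Tnks.

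These starts were rich in G and C. The median GC content over the same 300 bases was 67.3% for the members and 55% over all 22367 promoters, with a median of 28.5 and 11 CpG. The letters GGGCGG, the core of the binding site of SP1, were found on either strand at 9 of the 10 members (all but Vmp1) and at 43.4% of all promoters. CCAAT was found at 3 (Xpo1, Tnks and Nufip2) against 37.9%, and CACGTG at 0 against 7.78%. The background here is all promoters of the genome and not those of chromosomes 8 and 11. A match describes letters and not a bound factor, and the part of GC content in these shares was not tested. The 100 bases just upstream of the TSS are shown for 4 members, Usp34 and Med13 with no day 15 peak within 1 kb and Tnks and Cltc with one, in the direction of transcription with CpG in capitals (mm9).
Usp34, chr11:23206816-23206915, plus strand: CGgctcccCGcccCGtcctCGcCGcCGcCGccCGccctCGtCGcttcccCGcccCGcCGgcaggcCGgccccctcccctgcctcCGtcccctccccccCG
Med13, chr11:86171105-86171204, minus strand: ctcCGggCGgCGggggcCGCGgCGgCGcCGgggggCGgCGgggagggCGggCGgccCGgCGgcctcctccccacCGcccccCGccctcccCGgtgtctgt
Tnks, chr8:36028745-36028844, minus strand: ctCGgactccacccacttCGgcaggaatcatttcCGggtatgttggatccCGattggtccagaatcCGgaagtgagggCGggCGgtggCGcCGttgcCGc
Cltc, chr11:86571068-86571167, minus strand: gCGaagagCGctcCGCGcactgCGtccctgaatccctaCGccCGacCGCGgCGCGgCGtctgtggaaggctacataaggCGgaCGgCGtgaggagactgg

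Sequence under the day 15 peaks was poorer in G and C than the rest of the windows. WT day 15 peaks of the members had 38.2% GC and 0.662 CpG per 100 bp, and the stretches between them 42.6% and 0.968. At the other genes the values were 43.3% in peaks and 44.9% between them. The same direction held at 9 of the 10 members taken singly, with the widest gaps at Cobl, which rests on 1 peak, and at Nufip2 (37.8% in peaks and 45.2% between), and not at Mapt (49.63% and 49.02%). At day 0 the joined member values were 40.3% in peaks and 40.9% between them, but GC was higher in peaks at 8 of the 10 members taken singly and lower only at Xpo1 and Nufip2. What part base composition has in where peaks were called was not tested.

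Below are the middle 120 bases of the strongest intron peak of 4 members at day 15 and of Cobl at day 0, shown in the direction of transcription with CpG in capitals, to set beside the starts above. The GC content of these stretches was 27.5% at Nufip2 and Med13, 38.3% at Usp34, 54.2% at Tnks and 43.3% at Cobl, against 63% to 90% in the 100 bases upstream of the 4 starts. They hold 0 to 2 CpG each, where the starts hold 10 to 17.
Nufip2, chr11:77528470-77528589, plus strand: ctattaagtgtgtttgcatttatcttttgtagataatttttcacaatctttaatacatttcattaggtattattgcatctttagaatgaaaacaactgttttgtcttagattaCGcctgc
Med13, chr11:86087886-86088005, minus strand: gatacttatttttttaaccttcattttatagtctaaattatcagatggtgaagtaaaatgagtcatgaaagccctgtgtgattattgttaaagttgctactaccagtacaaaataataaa
Usp34, chr11:23239543-23239662, plus strand: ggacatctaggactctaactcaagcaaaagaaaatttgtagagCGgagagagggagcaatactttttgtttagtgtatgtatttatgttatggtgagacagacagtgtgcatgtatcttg
Tnks, chr8:36017865-36017984, minus strand: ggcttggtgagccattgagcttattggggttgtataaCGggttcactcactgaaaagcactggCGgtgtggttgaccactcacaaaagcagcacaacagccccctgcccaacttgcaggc
Cobl, chr11:12193538-12193657, minus strand: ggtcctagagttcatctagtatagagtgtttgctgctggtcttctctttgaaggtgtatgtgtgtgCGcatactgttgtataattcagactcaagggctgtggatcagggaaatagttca

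Genes outside the set reached the same densities. Among other genes with a long window, Gtf2e2, which encodes a TFIIE subunit, had the most WT day 15 peaks per kb at 0.379, above every member. Appbp2 (0.362), Aff4 (0.357), 1700081L11Rik (0.357) and Nfat5 (0.353) followed. The genes whose densities in the 4 lists lay nearest to the median of the members were Aff4, a scaffold of the super elongation complex, Nfat5, the transcription factor of the osmotic stress response, Rtn4, Rps6kb1 and Cnot1, at distances from 0.749 to 0.951 over the 4 log2 densities. Ankrd11 held 18 WT peaks at day 0 and 55 at day 15, or 0.326 per kb, with 1 Hira-null peak at day 0 and 0 at day 15.

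Paralogues and partners of the members had a lower median WT day 15 density than the members. The members were selected on WT peaks, so this contrast follows at least in part from the selection. The list has 37 genes, of which 34 lie off chromosomes 8 and 11, where WT peaks were sparser. Of these 34, 24 had a WT day 15 peak, against 34.5% of the genes of the other autosomes and 54.9% of those with long windows. The 34 include Usp9x, Med12 and Fmr1 on chromosome X, which had no peak in any list and which these autosomal backgrounds do not match. WT peaks were more numerous at day 15 than at day 0 at 15 of the 34 and fewer at 12, where 23.1% of the genes of the other autosomes had more and 17.6% fewer, or 35.9% and 27.6% of those with long windows. Over all 37 the median day 15 density was 0.0297 peaks per kb, against 0.288 for the members and 0.0480 for other long genes of chromosomes 8 and 11, and off these chromosomes 0.0252, against 0.00622 for long genes of the other autosomes. The 3 list genes on chromosome 11 were among the densest, with 0.197 at Fxr2, 0.115 at Ap2b1 (4 WT peaks at day 0 and 13 at day 15) and 0.113 at Becn1. Off chromosomes 8 and 11 the highest was Tmem41b, a partner of Vmp1 in autophagy, at 0.160. Picalm, a clathrin adaptor, had 5 WT peaks at day 0 and 14 at day 15 and 2 Hira-null day 15 peaks.

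Within families the values differed widely. Tnks2 held 6 and 9 WT peaks where Tnks held 5 and 40. Med13l held 2 and 10, and Ccnc, the cyclin of the same Mediator module, 6 and 1. Usp7 went from 12 to 0 WT peaks and Usp24 held 5 on both days, where Usp34 went from 35 to 67. Xpo4 had 6 and 5 and Xpo6 had 1 and 8. Map4, annotated as Mtap4, had 8 and 12 in a window of 163 kb, where Mapt had 6 and 8 in 111 kb. Per kb Map4 held 0.0492 and 0.0738 and Mapt 0.0541 and 0.0721. Cobll1 had 0 and 11 WT peaks, the opposite direction to Cobl, and Fxr1 had 3 and 7. The counts are of 1 library each, window lengths differ, and only the members were selected on their WT peaks.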

How the data were processed

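The authors cut native chromatin with micrococcal nuclease, sequenced the anti-HA precipitate in paired-end mode, aligned the reads to mm9 with Bowtie, removed duplicates with Samtools and called peaks with MACS 1.4.2, per the labels and the study's methods. The deposited lists, 1 per condition, hold a chromosome, start, end and peak score. The score column is the authors' MACS score, and its lowest value was 50 in each list. Read depth is unknown, no input file was used here, and the control of each list was not checked. Starts were taken as counted from 0.

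Genes were the protein-coding genes of GENCODE M1 on NCBIM37 (mm9), and sequences were read from that assembly. The start and end of a gene span all its transcripts. One annotated model, Gm20388, spans 4445 kb of chromosome 8 and was left out in an alternative. Peaks of a list were counted where they touched a window by 1 bp, and a peak counted once in joined windows. Intervals are exact Clopper-Pearson or Poisson intervals of 95% and cover counting error over peaks only. With 1 library per condition no test was run and no p-value computed. The members and the gene lists were chosen with earlier results of these data known. Named genes were the 10 members with their strongest day 15 and all Hira-null peaks, the 5 densest and the 5 most alike other genes with a long window, the paralogue list (single values where a WT list had at least 5 peaks), Ankrd11 and genes inside a member domain. Becn1, Tmem41b, Palld and Ranbp17 were added after their values were seen. Alternatives were a score of at least 100 in every list (a cut that carries depth), lists held to the length of the shortest, merging of peaks less than 1 kb apart, gene bodies without flanks, assignment by midpoint, other overlaps and other backgrounds. The counting was tested on simulated data, with planted peaks found in 20 of 20 genes, and overlaps were compared with those of bedtools 2.31.1, which differed for 0 peaks of either WT list. The work used scipy 1.17.1, pandas 2.3.3 and numpy 2.4.6 under Python 3.11.15, and figures were drawn with matplotlib 3.10.9.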

Additional observations from a re-analysis of the deposited data

Results flagged for a closer look

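At Mapt the WT and Hira-null counts moved in opposite directions between days. The change from day 0 to day 15 was 2 more WT peaks, from 6 to 8, and a Hira-null difference of -1, from 1 peak to 0. The difference between the genotypes was not tested, since each condition has 1 library, and changes of this size lie within counting error.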

How the results depend on the processing

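Of 49 recomputed values of 7 results, 37 stayed within the 95% interval of the main value or, for counts, within 1.5 times of it, 11 moved and 1 reversed. Merging peaks less than 1 kb apart reversed the ratio of WT day 15 to day 0 peaks (0.789), lowered the day 15 density to 0.0857 peaks per kb and the HIRA-dependent share to 91.1%, and left 0 members above the 90th percentile, since close peaks then count as 1. A score of at least 100 gave a density of 0.152 and a ratio of 2.06. Lists held to 7332 peaks gave a density of 0.125 and a day 0 HIRA-dependent share of 98.8%. Requiring that 50% of the WT peak be covered gave 98.5% at day 15 and 98.3% at day 0. Without Cobl and Mapt, an alternative chosen after seeing the data like equal WT lists (ratio 1.38) and the background without Gm20388, density was 0.312 and the ratio 1.88. The share of WT day 15 midpoints in the first 20% of the body stayed within its interval under the 5 alternatives run for it. Joining at 5 kb split the 9 WT day 15 domains that touch members into 20. No paired analysis was possible because each condition has 1 library. Read depth is unknown, so counts across lists carry it.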
